A study of Mus musculus with 9 samples.

Results

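The comparison joined 2 mouse lines that carry different deletions of the Ms4a locus and set them together against wild type, to ask which transcripts of the main olfactory epithelium moved the same way whenever Ms4a6c was missing. The knockout group held 6 mice, 3 Ms4a6c knockout and 3 Ms4a cluster knockout mice, and the control group held the 3 wild-type mice, so that all 9 mice of the series were used. Of 55291 genes in the deposited table, the 23225 with at least 10 expected counts summed over the 9 mice were tested, and a gene was taken as shared when its difference from wild type had the same direction in both lines. Ms4a6c knockout mice were made by KOMP by homologous recombination and lack 1 gene, whereas in Ms4a cluster knockout mice the gene cluster was removed with CRISPR/Cas9, at ends that the sources used here do not give. Each line is 1 engineered strain, so effects of a deletion and of the strain that carries it cannot be told apart. All 9 mice were labelled C57BL/6 and were 8 to 12 weeks old, and the wild-type mice were littermate controls, although the sources used here do not say of which line.

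Ms4a genes encode small proteins that cross the membrane several times and share no structure with G protein-coupled odorant receptors. They are best known from blood cells, where Ms4a1 encodes the B cell antigen CD20, and from necklace neurons, a group of olfactory sensory neurons that use a cyclic GMP pathway and project to a ring of glomeruli in the olfactory bulb. Most other olfactory sensory neurons express a single odorant receptor of the Olfr family and signal through the G protein subunit encoded by Gnal, the cyclase encoded by Adcy3 and a cyclic nucleotide-gated channel. The dissected tissue also holds sustentacular cells, basal cells, glands, glia and blood.

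The expected counts of a mouse, which are estimates of the number of reads from each gene, summed to between 13954591 and 21987174. A limit of 3 counts, at or below which a gene was treated as not detected, came to between 0.136 and 0.215 CPM (counts scaled to a library of fixed size) by library total alone. Levels in CPM given here were also scaled by TMM factors. On that scale, which the fold limits use, 3 counts came to 0.183 CPM as the wild-type mean and 0.2 CPM as the Ms4a cluster knockout mean. It covers counting error only. The 24 listed genes of mature olfactory sensory neurons were all tested, and their summed level was 24000 to 26100 CPM in wild-type and 21300 to 26300 CPM in knockout mice. Wild-type mouse 1 and Ms4a cluster knockout mouse 2 stood apart with 148513 and 144749 CPM of the nasal gland transcript Bpifb9b, against 235 to 30616 CPM in the other 7 mice. Xist, which is transcribed in females, was at 247 to 366 CPM in 2 wild-type and 3 knockout mice and at 0 to 2.61 CPM in the others.

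With the quasi-likelihood test of edgeR and p-values adjusted after Benjamini and Hochberg, 1 gene differed between the 6 knockout and the 3 wild-type mice, which is 0.00431% of the genes tested. It was Ms4a6c, the gene that both lines lack, and it was lower in each line. Higher genes at an adjusted p under 0.05 numbered 0 (0.0%). At an unadjusted p under 0.05 there were 1503 genes (6.47%), 832 higher (3.58%) and 671 lower (2.89%) in the knockouts. The knockout and wild-type mice did not overlap in 752 genes (3.24%), with all 6 knockout mice above wild type in 390 (1.68%) and below it in 362 (1.56%).

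Ms4a6c lies on the plus strand of mouse chromosome 19 (GRCm38, 11469366 to 11482192) and encodes one of the MS4A proteins of necklace neurons. The 3 wild-type mice had 54.0, 90.3 and 81.5 expected counts, or 3.84, 4.99 and 4.66 CPM. Ms4a6c knockout mice had 0, 2.35 and 2 counts, and all 3 Ms4a cluster knockout mice had 0. Every knockout mouse was thus under the limit of 3 counts and the groups did not overlap. The gene fell by 6.63 ± 0.55 on the log2 scale (SE; edgeR adjusted p = 0.00323), and computed against the limit per library the level was at least 24.5-fold lower. The 19 alternative analyses gave adjusted p-values from 5.8e-15 to 0.0425, all under 0.05. The noncoding gene BE692007 overlaps Ms4a6c on the other strand and had 9.05, 14.7 and 9.47 counts in the wild type, against 2, 1.65 and 1 in the Ms4a6c knockout and 0 in every Ms4a cluster knockout mouse. All 6 knockout values were again under the limit, at least 3.61-fold below wild type, with an edgeR adjusted p of 0.41. The strand setting used for counting is not given in the sources used here, so reads of this pair may not be separable.

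The other members of the family show how the lines differ within the joint group. The deposited table lists 21 Ms4a genes, of which 10 had enough counts to be tested, and Ms4a6c alone passed in the joint comparison. The summed CPM of the family was 15.9 to 16.6 in wild-type mice, 7.9 to 9.75 in Ms4a6c knockout mice and 0 in all 3 Ms4a cluster knockout mice. Ms4a7, which is best known from macrophages, was at 4.76, 3.72 and 4.04 CPM in wild type, 3.85, 2.48 and 3.12 CPM in the Ms4a6c knockout and 0 in the cluster knockout. Its joint log2 fold change was -1.36 ± 1.01 (SE; edgeR adjusted p = 0.858), while the difference between the lines was -8.78 ± 0.56 (edgeR adjusted p = 0.000294). The same held for Ms4a6b, with a difference between the lines of -7.85 ± 0.67 (edgeR adjusted p = 0.00143), and for Ms4a6d, with -7.29 ± 0.68 (edgeR adjusted p = 0.00225). Ms4a6b and Ms4a6d have near-identical stretches of transcript, so the split of reads between them is uncertain. Ms4a6b was at 2.56, 3.66 and 3.13 CPM in wild-type mice and at 1.52, 1.3 and 2.17 CPM in Ms4a6c knockout mice. Its log2 fold change in the Ms4a6c knockout was -0.91, with the same direction as in the cluster knockout. It did not pass in that line alone (edgeR adjusted p = 0.302) or in the joint test (edgeR adjusted p = 0.772). Ms4a1 was at 0.711, 0.555 and 0.796 CPM in wild type, 0.533, 1.61 and 0.51 CPM in the Ms4a6c knockout and 0 in the cluster knockout (difference between the lines -6.93 ± 1.10; edgeR adjusted p = 0.05 after rounding). The remaining 5 tested genes, Ms4a3, Ms4a4a, Ms4a4b, Ms4a4c and Ms4a14, had 2 to 13 counts in each wild-type mouse, 1 to 22 in the Ms4a6c knockout and 0 in the cluster knockout. Against the limit of 3 counts, the cluster knockout was at least 20.9-fold below wild type for Ms4a7, 15.6-fold for Ms4a6b, 8.23-fold for Ms4a6d and 3.44-fold for Ms4a1.

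**Figure D1:**
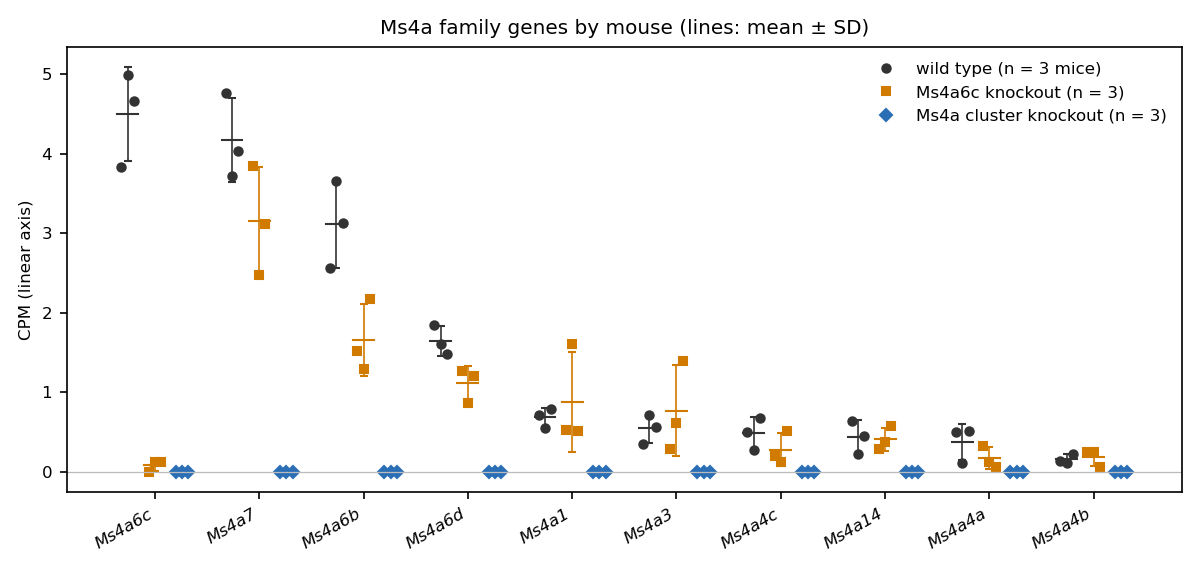
CPM on a linear axis of the 10 tested Ms4a genes, with 1 point for each mouse and lines for the mean and SD of each group of 3. Ms4a6c is at or near 0 in all 6 knockout mice, while the other 9 genes are at 0 in the Ms4a cluster knockout only.

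Around the family, the span from the first to the last Ms4a gene covers 678.6 kb of chromosome 19 (10962293 to 11640851) and holds 15 tested genes. Ms4a6c was the one that passed, and Ms4a6c and BE692007 were the 2 with an unadjusted p under 0.05. Outside it the nearest 20 tested genes on each side were examined, and of these 40 none passed. The unadjusted p was under 0.05 in 3 of the 40 (7.5%), where the share over all genes was 6.47%. These 3 were all higher in the knockouts. Cyb561a3, a cytochrome b561 gene, was at 11.6, 12.9 and 12.6 CPM in wild type, 15.8, 15.1 and 15.5 CPM in the Ms4a6c knockout and 15.4, 14.1 and 16.1 CPM in the cluster knockout. All 6 knockout values were above the wild-type values, with a log2 fold change of 0.31 ± 0.08 (SE; edgeR adjusted p = 0.747). Tmem132a (0.36 ± 0.11) and the odorant receptor gene Olfr76 (0.38 ± 0.15) had the same adjusted p.

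To describe the genes that came nearest to a shared change, genes with a mean of at least 1 CPM and no overlap between the 6 knockout and the 3 wild-type mice (590 genes) were ranked by p. The first 24, Ms4a6c among them, were taken, 11 higher and 13 lower in the knockouts. This choice fixed that groups do not overlap and that p is small, so neither counts as a result. The edgeR adjusted p of the 23 genes other than Ms4a6c ran from 0.157 to 0.747, so that 0 of the 23 passed, although all 23 had an unadjusted p under 0.05. In the 3-group model the smallest adjusted p for a difference between the lines was 0.453 over the 24. In bulk tissue, fewer cells that express a gene and less RNA per cell cannot be told apart.

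RefSeq promoter windows (GRCm38.p6) were found for 16 of the 24. The 250 bases before the start are shown for Ms4a6c, which passed, and for the highest ranked genes with a window among those that were higher in the knockouts, each printed 5′ to 3′ on the gene's strand. Capitals mark matches to CCCNNGGG, the palindromic core bound by EBF factors of olfactory neurons, or to TAATTA, a homeodomain core. These and the TATA box letters TATAAA were searched on both strands. A match is a description of the letters and not a bound site.
Ms4a6c, plus strand, chr19:11469118-11469367: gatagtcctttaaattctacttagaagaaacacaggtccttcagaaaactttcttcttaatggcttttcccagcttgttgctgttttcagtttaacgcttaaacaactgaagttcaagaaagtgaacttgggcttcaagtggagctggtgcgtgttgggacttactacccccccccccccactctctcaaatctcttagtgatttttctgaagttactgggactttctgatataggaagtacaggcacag
Ptgds, minus strand, chr2:25469750-25469999: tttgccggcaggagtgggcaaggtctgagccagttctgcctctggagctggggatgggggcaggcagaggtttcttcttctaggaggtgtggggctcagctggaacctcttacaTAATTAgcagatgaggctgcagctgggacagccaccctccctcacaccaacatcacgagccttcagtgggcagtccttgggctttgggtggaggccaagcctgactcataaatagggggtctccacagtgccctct
Pim1, first of 2 starts, plus strand, chr17:29490535-29490784: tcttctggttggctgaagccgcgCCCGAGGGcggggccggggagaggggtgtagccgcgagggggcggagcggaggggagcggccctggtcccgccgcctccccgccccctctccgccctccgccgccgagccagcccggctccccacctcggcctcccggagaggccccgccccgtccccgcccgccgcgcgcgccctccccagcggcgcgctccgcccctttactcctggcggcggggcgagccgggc
The Ptgds window held 1 TAATTA, a motif found in 4.84% of the 32851 windows, and the Pim1 window held 1 CCCNNGGG, found in 11.8%. TATAAA, found in 12.4%, was in none of the 3 windows, and the Ms4a6c window held no match.

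Necab1, which encodes a neuronal calcium-binding protein, stood next to Ms4a6c in the ranking. Its level was 67.9, 74.2 and 75.4 CPM in wild-type mice, 54.0, 50.9 and 47.7 CPM in Ms4a6c knockout mice and 58.1, 51.6 and 53.6 CPM in Ms4a cluster knockout mice. The knockout mean was 72.6% of wild type, and the values of the lines overlapped. The joint log2 fold change was -0.46 ± 0.06 (SE; edgeR adjusted p = 0.157), with -0.51 in the Ms4a6c and -0.41 in the cluster knockout. DESeq2 called it with an adjusted p of 1.11e-06, and the 3-group model that averages the lines with 0.0193. The adjusted p over the 19 alternatives ran from 1.11e-06 to 0.934, with 2 of the 19 under 0.05.

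Ptgds, the lipocalin-type prostaglandin D synthase made by glia and meninges, was the highest ranked of the genes with more RNA in the knockouts. It was at 129, 145 and 118 CPM in wild type, 206, 194 and 189 CPM in the Ms4a6c knockout and 169, 194 and 177 CPM in the cluster knockout. The lowest knockout mouse lay above the highest wild-type mouse, and the joint log2 fold change was 0.52 ± 0.08 (SE; edgeR adjusted p = 0.242). It too was called in 2 of the 19 alternatives, by DESeq2 with 3.55e-06 and by the 3-group model with 0.0309. Markers of olfactory ensheathing and Schwann cells, which are also glia, are given beside it. Frzb, a secreted Wnt inhibitor, was at 4.55 to 6.71 CPM in wild type and 7.36 to 15.9 CPM in the knockouts (log2 fold change 0.99 ± 0.28; edgeR adjusted p = 0.747), and the neuropeptide gene Npy at 1.59 to 1.78 and 1.80 to 6.58 CPM (0.97 ± 0.37; edgeR adjusted p = 0.747). These were the 2 genes, of 13 on that list (15.4%, where all genes gave 6.47%), whose unadjusted p was under 0.05. The median log2 fold change of the 13 was 0.21. The summed level of the 13 was 1380 to 1540 CPM in wild type and 1440 to 1620 CPM in the knockouts, so the groups overlapped. The part of these cells in the Ptgds values was not tested.

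Pim1, a serine/threonine kinase induced by cytokine signals, was at 32.2, 31.0 and 32.0 CPM in wild type. The Ms4a6c knockout mice were at 43.7, 47.6 and 51.5 CPM and the cluster knockout mice at 45.5, 38.1 and 41.7 CPM. The wild-type values lay close together while the knockout values spread from 38.1 to 51.5 CPM. The log2 fold change was 0.50 ± 0.09 jointly (SE; edgeR adjusted p = 0.41), 0.59 in the Ms4a6c and 0.40 in the cluster knockout. Lifr, the receptor of leukaemia inhibitory factor, which belongs to the cytokine receptors upstream of such signals, was lower, with 78.5, 83.1 and 88.1 CPM in wild type and 55.5 to 71.8 CPM in the knockouts (-0.33 ± 0.08; edgeR adjusted p = 0.747).

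Among odorant receptors, 4 genes stood in the ranking and all 4 were lower. The groups did not overlap in 3.25% of the 1109 tested odorant receptor genes, close to the 3.24% over all genes. In 11 of them all knockout mice were above wild type and in 25 below. Olfr1202 was at 4.98, 4.27 and 3.41 CPM in wild type, 2.62, 1.99 and 2.23 CPM in the Ms4a6c knockout and 2.10, 1.99 and 2.16 CPM in the cluster knockout, which is 51.7% of the wild-type mean (log2 fold change -0.94 ± 0.17; edgeR adjusted p = 0.41). Olfr392 was at 6.26, 7.99 and 8.02 CPM in wild type and 3.69 to 5.21 CPM in the knockouts (-0.83 ± 0.15). Olfr1323 was at 4.98, 6.10 and 5.40 CPM and 2.26 to 3.5 CPM (-0.86 ± 0.16). Both had an edgeR adjusted p of 0.41. Olfr465-ps1, listed with a pseudogene symbol, was at 8.25, 11.8 and 10.4 CPM in wild type, 7.46, 5.46 and 6.82 CPM in the Ms4a6c knockout and 3.91, 4.78 and 5.41 CPM in the cluster knockout (-0.84 ± 0.19; edgeR adjusted p = 0.747). The transcript of Olfr1202 has a near-identical copy, Olfr1204, so its reads may be shared. Over the family as a whole, the unadjusted p was under 0.05 in 87 of 1109 tested odorant receptor genes (7.84%, where all genes gave 6.47%), with 36 higher and 51 lower, and 0 passed. The median log2 fold change of the 1109 was 0.01, the same as over all genes.

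Genes for transcription and chromatin made up another group of the ranking. Pitx1, a homeobox factor, was at 52.5, 53.0 and 55.4 CPM in wild type and 60.9 to 71.5 CPM in the knockouts (log2 fold change 0.31 ± 0.06; edgeR adjusted p = 0.41). Zfhx3, a large zinc finger and homeobox factor, was lower, with 28.7, 29.2 and 33.1 CPM in wild type and a narrow 23.4 to 25 CPM in the knockouts (-0.32 ± 0.06; edgeR adjusted p = 0.41). The zinc finger genes Zfp281 (-0.31 ± 0.07) and Zfp839 (0.38 ± 0.09) and Bahcc1, a chromatin reader (0.34 ± 0.08), had adjusted p-values of 0.64 to 0.747. Tug1, a long noncoding RNA, was at 104, 110 and 106 CPM in wild type and 87.7 to 94.6 CPM in the knockouts (-0.23 ± 0.04; edgeR adjusted p = 0.41).

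A further group acts in adhesion and the cytoskeleton. Efna5, an ephrin that guides growing axons, was at 35.2, 43.4 and 46.6 CPM in wild type and 26.7 to 33.7 CPM in the knockouts (log2 fold change -0.42 ± 0.09; edgeR adjusted p = 0.747). The gap between the lowest wild-type and the highest knockout mouse was thus small. Arvcf, a catenin of cell junctions, was at 41.9, 41.5 and 42.3 CPM in wild type and 46.9 to 54.5 CPM in the knockouts (0.25 ± 0.05). Rock1, a kinase that acts on the actin cytoskeleton, was at 109, 115 and 110 CPM in wild type and 95.1 to 101 CPM in the knockouts (-0.19 ± 0.04). Arvcf and Rock1 also had an edgeR adjusted p of 0.747.

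The ranking also held the enzymes Hmox1, Nat1 and Apobec3 and the lipid carrier Apoe. Apoe, which carries lipids between cells, was at 579, 572 and 620 CPM in wild type, 741, 806 and 755 CPM in the Ms4a6c knockout and 709, 809 and 687 CPM in the cluster knockout (log2 fold change 0.35 ± 0.08; edgeR adjusted p = 0.747). Hmox1, which breaks down haem, was at 17.2, 17.1 and 17.6 CPM in wild type, 21.9, 28.8 and 28.4 CPM in the Ms4a6c knockout and 20.6, 24.6 and 22.1 CPM in the cluster knockout (0.49 ± 0.11; edgeR adjusted p = 0.747). Nat1, an arylamine acetyltransferase, was at 3.63, 2.88 and 2.96 CPM in wild type and 4.08 to 5.51 CPM in the knockouts (0.65 ± 0.15). Apobec3, a cytidine deaminase directed against retroviruses, was at 17.9, 17.8 and 15.4 CPM and 19.6 to 22.6 CPM (0.32 ± 0.07). The values of red blood cell markers stand with the gene lists, and their part in Hmox1 was not tested.

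The remaining genes of the ranking were Lrrc58 and Gm20431. Lrrc58, a leucine-rich repeat gene, was at 58.4, 54.5 and 58.3 CPM in wild type and 42.1 to 49.3 CPM in the knockouts (log2 fold change -0.32 ± 0.06; edgeR adjusted p = 0.41). A stretch of its transcript also matches an Actb transcript, so reads may be shared. Gm20431 had the largest difference of the 23, with 5.12, 5.99 and 3.19 CPM in wild type, 12.2, 9.12 and 16.6 CPM in the Ms4a6c knockout and 11.9, 8.37 and 9.77 CPM in the cluster knockout (1.25 ± 0.25; edgeR adjusted p = 0.54). It is a gene model that overlaps Ube2v1 and Tmem189 on the same strand and shares near-identical sequence with both and with Gm8325 and Gm5830, so that its count depends on how the estimate divided shared reads.

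**Figure D2:**
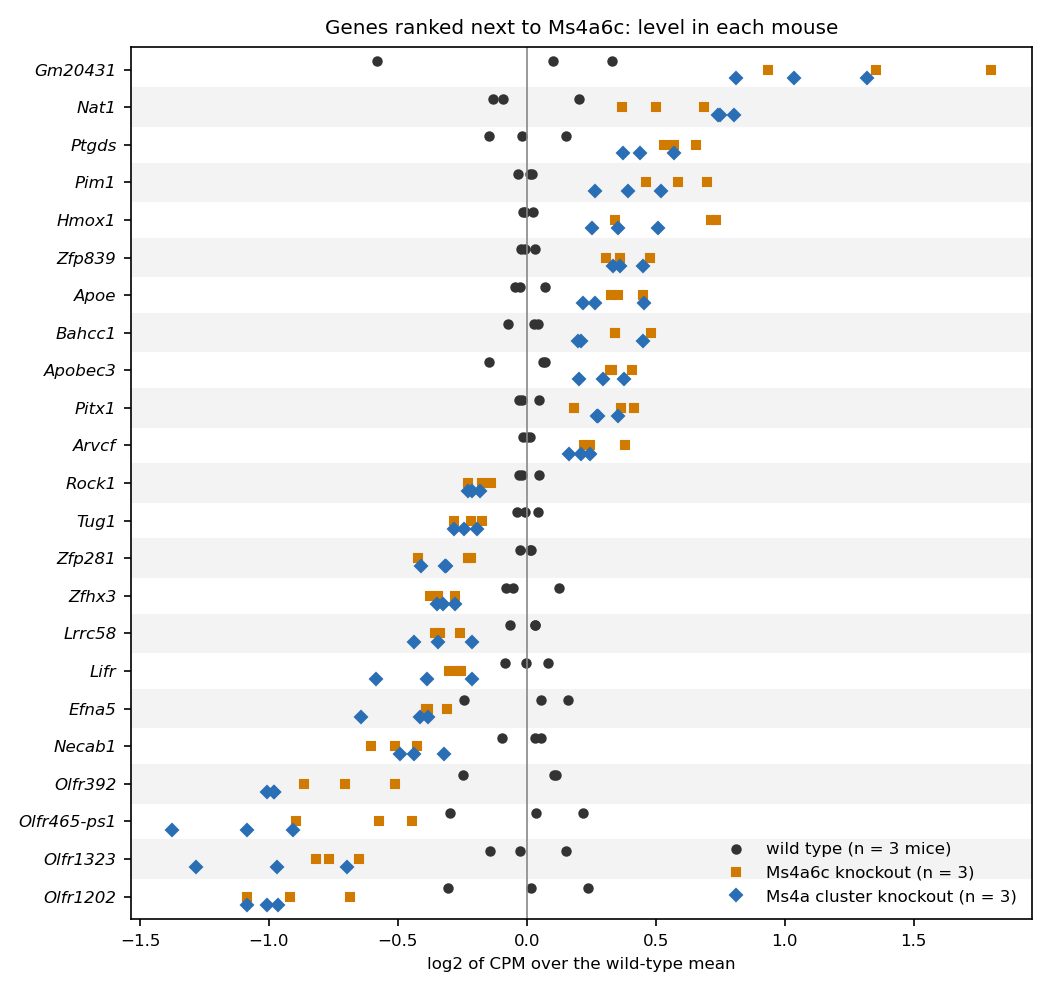
Level of the 23 ranked genes other than Ms4a6c in each of the 9 mice, as log2 of CPM over the wild-type mean. Both knockout lines lie on the same side of the wild-type mice in every row because the genes were chosen that way, and the distance is under 1 log2 unit in most.

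In the 3-group model each line was also set against wild type. These 2 comparisons share the wild-type mice, so likeness between them is not independent evidence. All 24 genes had an unadjusted p under 0.05 in each line, and 3 (Ms4a6c, Pim1 and Olfr465-ps1) had an unadjusted p under 0.05 for the difference between lines. The way the 24 were chosen favours a small p in each line and a small difference between the lines, so neither counts as a result. Alone, the Ms4a6c knockout differed from wild type in 101 genes (0.435%), the cluster knockout in 6 (0.0258%) and the lines from each other in 103 (0.443%). Ms4a6c was the 1 gene called in each line alone in the same direction.

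For Hist1h2al and Wdfy1, named from the lists, the lines differed from each other. Hist1h2al, which carries a histone H2A symbol but is annotated as a processed pseudogene, was at 0.0711, 0.333 and 0.228 CPM in wild type, 16.7, 16.9 and 16.4 CPM in the Ms4a6c knockout and 0.401, 0.498 and 0.301 CPM in the cluster knockout. Its joint log2 fold change was 5.25 ± 1.70 (SE; edgeR adjusted p = 0.747), and the lines differed by -5.41 ± 0.27 (edgeR adjusted p = 5.62e-06). Wdfy1, a gene whose level is known to differ between C57BL/6 substrains, showed the reverse, with 39.8, 41.5 and 47.7 CPM in wild type, 45.4, 47.3 and 48.0 CPM in the Ms4a6c knockout and 121, 99.2 and 113 CPM in the cluster knockout. The lines differed by 1.25 ± 0.09 (edgeR adjusted p = 8.27e-05). Trib3, a pseudokinase of the integrated stress response, was at 14.9, 17.1 and 15.1 CPM in wild type, 27.5, 48.2 and 42.4 CPM in the Ms4a6c knockout and 22.1, 17.1 and 22.3 CPM in the cluster knockout. The difference between the lines was -0.93 ± 0.19 (edgeR adjusted p = 0.0843). Nnt, with a line difference of 0.08 ± 0.21 (edgeR adjusted p = 0.943), is a mitochondrial transhydrogenase that also differs between substrains. It was at 13.3, 7.27 and 7.51 CPM in wild type and 12.0 to 15.7 CPM in the knockouts, so that wild-type mouse 1 lay among the knockout mice (0.61 ± 0.18; edgeR adjusted p = 0.747).

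**Figure D3:**
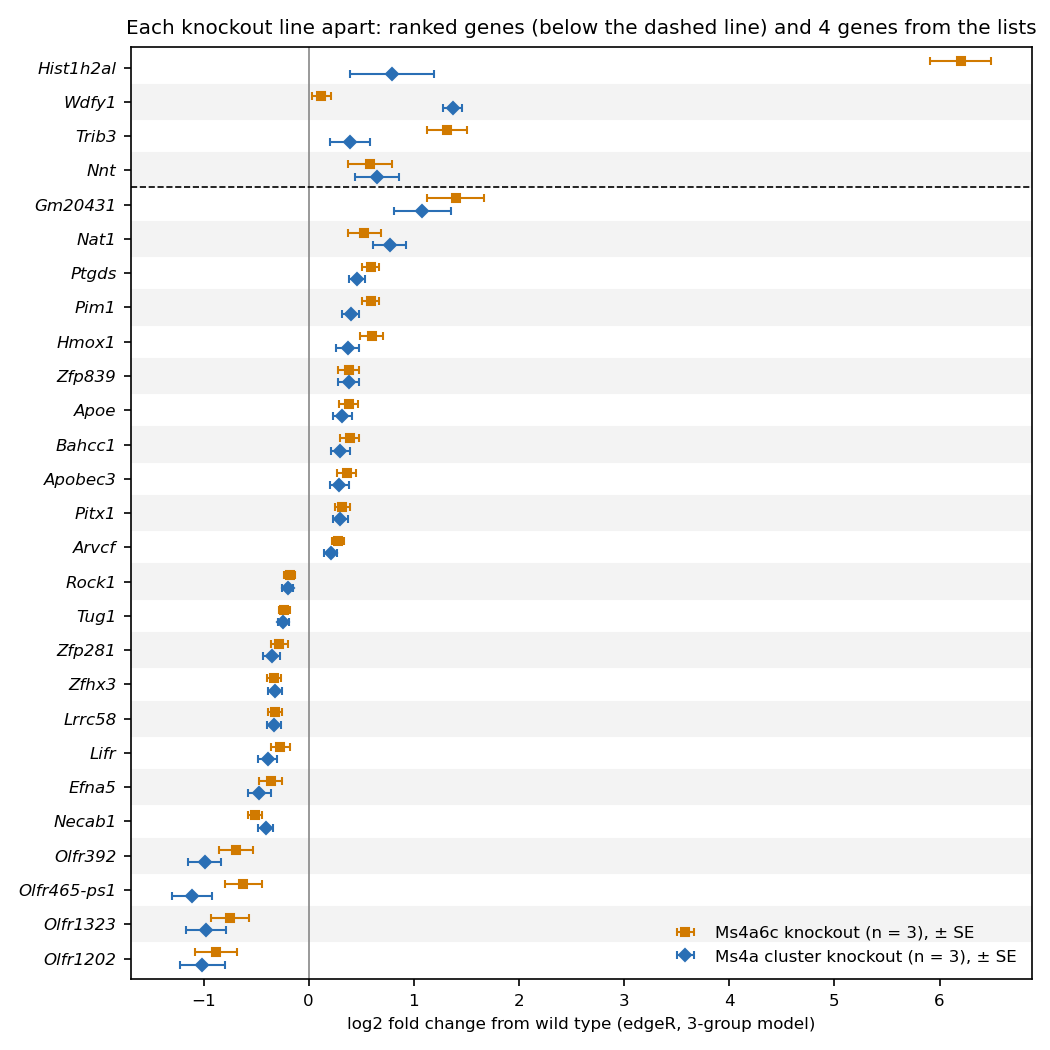
Log2 fold change from wild type with its SE for each knockout line, 3 mice each, for the 23 ranked genes below the dashed line and for Nnt, Trib3, Wdfy1 and Hist1h2al above it. The SE bars of the lines overlap or nearly overlap for most ranked genes, whereas Hist1h2al is high in the Ms4a6c knockout and Wdfy1 in the Ms4a cluster knockout.

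The number of shared genes depended on the model. DESeq2 called 23 genes (0.099%), of which 21 had the same direction in both lines, and 15 of the 24 ranked genes were among them. A 3-group edgeR model, in which the spread is measured within each line, called 36 genes for the mean of both lines (0.155%). Of these, 29 had the same direction in both lines, but 30 of the 36 also differed between the lines at an adjusted p under 0.05, and 8 had an unadjusted p under 0.05 in each line. Among the same-direction calls, Necab1, Ptgds, Pim1, Gm37206, BE692007 and Ms4a6c were called by both alternatives. Left out in turn, most mice changed nothing in the joint count. Without wild-type mouse 1 there were 3 genes, with Prl and Cga added, and without Ms4a6c knockout mouse 2 there were 2, with Rn7s1 added, a gene named here after its values were seen. The count at an unadjusted p under 0.05 moved more, to 957 without wild-type mouse 2 and to 2538 without Ms4a cluster knockout mouse 2.

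Some genes were separated by the limit of 3 counts, a rule on counts that takes no account of library size. In 12 genes (0.0517%) every wild-type mouse had at most 3 counts and every knockout mouse more, and in 5 genes (0.0215%) the reverse held. Gm37206, an unclassified transcript on the minus strand of chromosome 19 (GRCm38, 4762103 to 4765171), had 0 counts in all 3 wild-type mice, 12.1, 22.5 and 17.7 in the Ms4a6c knockout and 22.8, 13.2 and 14.8 in the cluster knockout. The level was at least 5.69-fold higher in the knockouts, with an edgeR adjusted p of 0.157. It lies within Gm21992 on the same strand and overlaps the RNA-binding protein gene Rbm4b on the other. Gm44170 had 0 counts in wild type and 6.3 to 19 in the knockouts, at least 3.38-fold higher (edgeR adjusted p = 0.41), and overlaps the translocon gene Sec61a1 on the other strand. The variable-region gene Igkv10-96 of antibody light chains had 2, 2 and 0 counts in wild type and 8 to 27 in the knockouts, at least 4.65-fold higher (edgeR adjusted p = 0.41), and Igkv10-94 is a near-identical copy. Il11ra2, an interleukin receptor gene, had 0, 0 and 0.30 counts against 4.19 to 15.4, at least 2.21-fold higher (edgeR adjusted p = 0.42), and shares sequence with Il11ra1.

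In the other direction stood Ms4a6c and BE692007, already described, with Olig3, Gm38211 and Clec2g. Olig3, a basic helix-loop-helix factor of the nervous system, had 8 counts in each wild-type mouse and 1 to 3 in the knockouts, at least 2.67-fold lower (edgeR adjusted p = 0.747). Clec2g, a C-type lectin, had 9, 4 and 4 counts in wild type and 0 to 2 in the knockouts (edgeR adjusted p = 0.747), a level at least 1.98-fold lower, and it shares sequence with Clec2i. Apart from Ms4a6c, none of these 17 genes passed the joint edgeR test. The remaining 8 genes higher in the knockouts had adjusted p-values of 0.747 to 0.829. Among them were Gpr12, a G protein-coupled receptor, and Kcnj9, a potassium channel. Gpr12 was at 0.0555 to 0.213 CPM in wild type and 0.2 to 0.698 CPM in the knockouts, so the groups overlapped in CPM. The same held for Gm42572 and Gm13140.

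**Figure D4:**
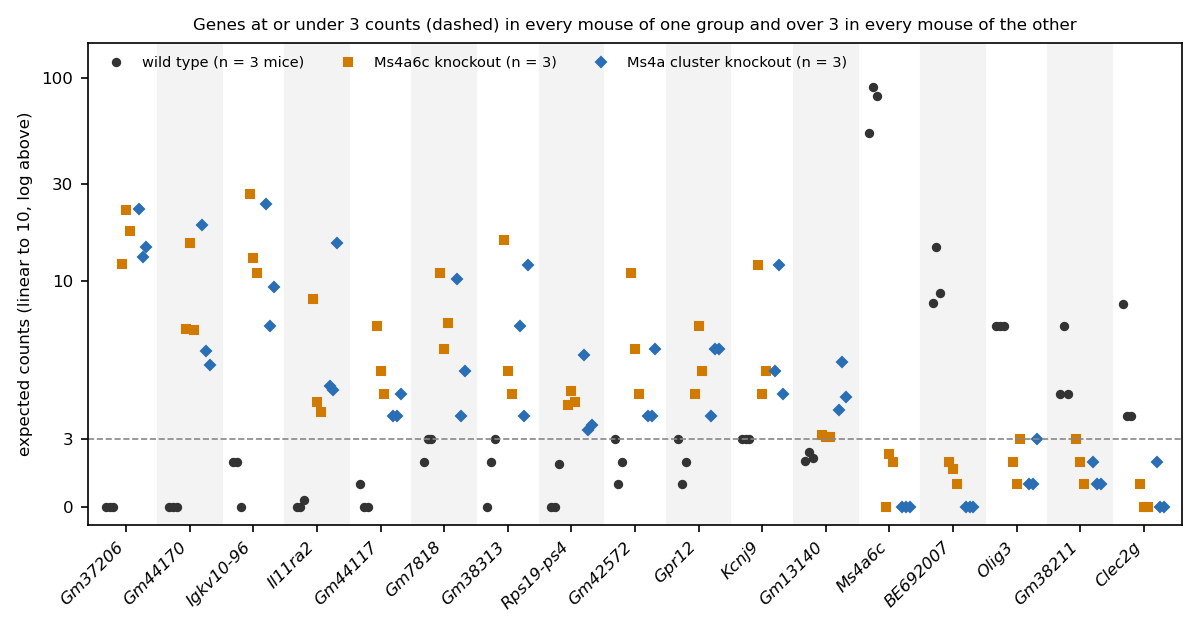
Expected counts in each of the 9 mice of the 17 genes whose groups were separated by the limit of 3 counts, on an axis that is linear to 10 and logarithmic above. Gm37206 and Gm44170 are at 0 in the wild-type mice, Ms4a6c stands far above the limit in them, and most other genes lie near the dashed limit in both groups.

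The gene lists describe the tissue. Each list was read by the share of its members whose unadjusted p was under 0.05, beside the 6.47% found over all genes. Apart from Ms4a6c, 0 genes of the lists passed. Of 24 genes of mature olfactory sensory neurons, among them the olfactory marker protein gene Omp and the transduction genes, 0 were under 0.05, and their median log2 fold change was 0.01. Macrophage genes (0 of 16), B lineage genes (0 of 18), genes of globose basal cells and proliferation (0 of 15), T and NK cell genes (0 of 15), MHC class II genes (0 of 11), nasal and Bowman gland genes (0 of 22) and mitochondrially encoded genes (0 of 16) gave the same count. For the 18 B lineage genes the median was 0.64, and their summed level was 52.9 to 198 CPM in wild type and 87.8 to 205 CPM in the knockouts. The necklace neuron list, which also holds Gucy1b2 and Trpc2 of other olfactory subsystems, counted 2 of 9 (22.2%), namely Car2 and Trpc2. The median log2 fold change of the 9 was 0.02. Their summed level was 173 to 180 CPM in wild type and 150 to 210 CPM in the knockouts. Car2, the carbonic anhydrase of necklace neurons, was at 73.3, 70.7 and 75.4 CPM in wild type and 71.6 to 90.9 CPM in the knockouts (log2 fold change 0.18 ± 0.07), and Trpc2, a channel of other olfactory subsystems, at 4.41, 4.88 and 2.05 CPM and 1.80 to 3.40 CPM (-0.69 ± 0.28). Both had an edgeR adjusted p of 0.747 and groups that overlapped.

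Of 11 red blood cell genes, 6 were higher at an unadjusted p under 0.05 (54.5%), with a median log2 fold change of 0.98. Hba-a1, an alpha-globin gene, was at 145, 202 and 149 CPM in wild type, 190, 463 and 555 CPM in the Ms4a6c knockout and 213, 463 and 188 CPM in the cluster knockout (1.06 ± 0.38; edgeR adjusted p = 0.747). In 3 of the 6 knockout mice it was thus high, while the other 3 lay near the highest wild-type mouse. The summed level of the list was 838 to 1100 CPM in wild type and 980 to 2560 CPM in the knockouts. Of 15 neutrophil granule genes, 4 were higher (26.7%, where all genes gave 6.47%). The summed level of the 15 was 212 to 470 CPM in wild type and 188 to 733 CPM in the knockouts, so the groups overlapped. Mpo, the myeloperoxidase of immature neutrophils, was at 3.63, 3.88 and 2.39 CPM in wild type, 3.32, 12.5 and 17.1 CPM in the Ms4a6c knockout and 7.51, 4.98 and 4.56 CPM in the cluster knockout (1.33 ± 0.51; edgeR adjusted p = 0.747). Whether the amount of blood in the dissected tissue bears on these values was not tested.

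For stress and activity genes the counts are likewise set beside the 6.47% over all genes. Of 22 immediate early and activity genes, 5 were under 0.05 (22.7%), with 1 higher and 4 lower. Fos, an early response transcription factor, was at 6.40, 9.49 and 8.70 CPM in wild type, 6.07, 2.85 and 3.06 CPM in the Ms4a6c knockout and 4.01, 7.18 and 2.46 CPM in the cluster knockout (log2 fold change -0.96 ± 0.32). Jun, its partner, was higher, at 69.8, 75.6 and 76.0 CPM in wild type and 77.0 to 99.1 CPM in the knockouts (0.26 ± 0.08). Dusp1, a phosphatase of MAP kinases, was lower (-0.29 ± 0.09), and all 3 genes had an edgeR adjusted p of 0.747. In the unfolded protein and integrated stress response list 3 of 18 were higher (16.7%) and 0 lower. The 3 were Ddit3, Trib3 and the endoplasmic reticulum chaperone Pdia4, and the groups overlapped for Ddit3 and Pdia4. Microvillous and tuft cell genes counted 3 of 13 higher (23.1%), namely Foxi1, Gfi1b and Chat. Foxi1, a factor of ionocytes, was at 19.8, 23.1 and 22.6 CPM in wild type and 21.4 to 27.5 CPM in the knockouts (0.22 ± 0.08; edgeR adjusted p = 0.747), so the groups overlapped. Gfi1b and Chat were under 1 CPM in every mouse. The summed level of the 13 was 213 to 235 CPM in wild type and 209 to 243 CPM in the knockouts. Sustentacular cell genes counted 1 higher and 1 lower of 16. Ermn was at 128, 164 and 160 CPM in wild type and 108 to 131 CPM in the knockouts (-0.37 ± 0.09). The interferon-induced gene Ifit1 was at 57.6, 48.8 and 54.6 CPM and 35.8 to 46.5 CPM (-0.32 ± 0.09), the 1 gene under 0.05 of 26 on its list. Ermn and Ifit1 had an edgeR adjusted p of 0.747, and the groups overlapped for Ermn but not for Ifit1.

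For the other lists the counts of members under 0.05 are set beside the 6.47% over all genes. Immature olfactory sensory neuron genes counted 2 of 18, which were Ddit3 and Trib3 again, horizontal basal cell genes 1 of 10, ciliated respiratory cell genes 1 of 17, and hypoxia and glycolysis genes 1 of 15. Clock genes counted 4 of 17 (23.5%), 2 higher and 2 lower, and squamous epithelial genes 2 of 9 (22.2%), 1 higher and 1 lower. Muscle, cartilage and bone genes counted 1 of 15, trace amine receptor genes 1 of 14, vomeronasal receptor genes 1 of 23 and ribosomal protein genes 1 of 84. Histone genes counted 1 of 8, which was Hist1h2al, and C57BL/6 substrain genes 2 of 4 (50%), which were Nnt and Wdfy1.

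Transcripts of pituitary hormones and of sensory ganglion neurons varied among the wild-type mice, and the lists for them were added after their values were seen. Where these transcripts came from was not tested. Prl, the pituitary hormone prolactin, was at 0, 338 and 21.6 CPM in wild type and 0 to 0.952 CPM in the knockouts, so wild-type mouse 1 lay with the knockout mice (log2 fold change -8.67 ± 1.54; edgeR adjusted p = 0.41). Growth hormone, Gh, was at 0.213, 131 and 20.4 CPM in wild type and 0 to 6.47 CPM in the knockouts (-5.38 ± 1.38; edgeR adjusted p = 0.747). Scn10a, a sodium channel of pain-sensing ganglion neurons, was at 0, 0.111 and 5.01 CPM in wild type and 0 to 0.0637 CPM in the knockouts (-6.05 ± 1.43; edgeR adjusted p = 0.747). Of the pituitary hormone genes 4 of 6 (66.7%) and of the sensory ganglion genes 3 of 8 (37.5%) were under 0.05, all lower. All genes gave 6.47%, but these lists were made with the low values known, so their shares do not count as a result. The fold changes of Prl, Gh and Scn10a rested on wild-type mice 2 and 3 or on mouse 3 alone.

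**Figure D5:**
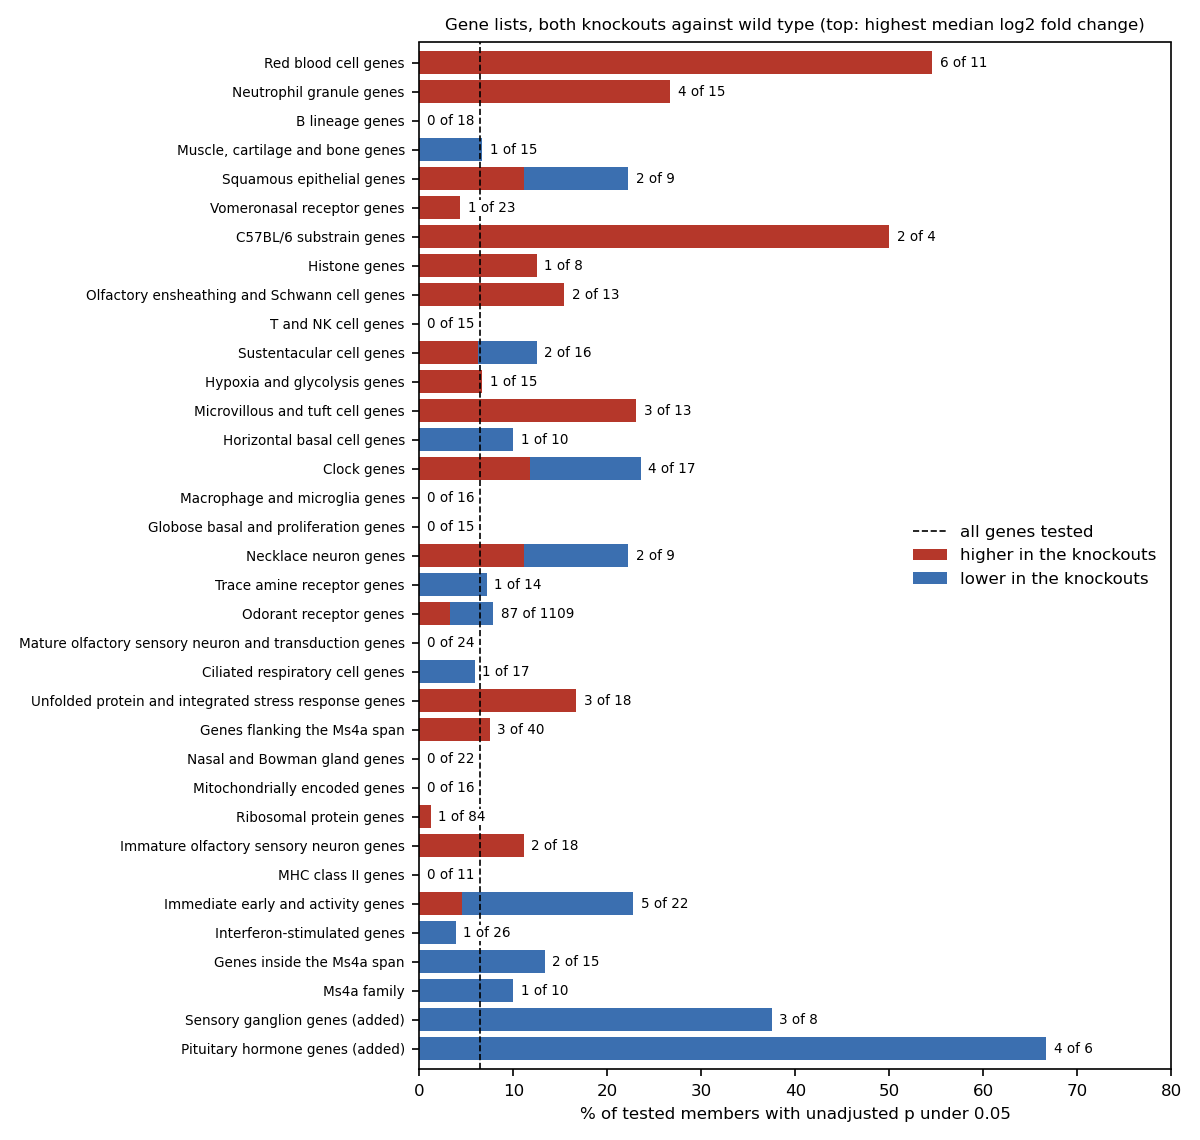
Percent of the tested members of each list with an unadjusted p under 0.05 in the comparison of 6 knockout with 3 wild-type mice, split by direction, with the count beside each bar and the share over all genes (6.47%) as a dashed line, ordered by median log2 fold change. Red blood cell genes stand at 54.5% higher. The added pituitary list stands at 66.7% lower, but it was made after its values were seen.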

How the data were processed

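Poly-A RNA of the main olfactory epithelium was sequenced in 9 mice, 3 per genotype. Per the labels and the study's methods, the authors aligned paired-end reads of directional libraries with STAR 2.6.1 and quantified them with RSEM 1.3.1 on GENCODE M25 (mm10). They deposited the expected counts without normalization and used DESeq2 1.30.1 for their own analysis. Groups and replicate numbers came from the sample labels.

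Expected counts were rounded, scaled by TMM and tested with edgeR 4.0.16 (quasi-likelihood, R 4.3.3), as 2 groups, 6 knockout against 3 wild-type mice, with Benjamini-Hochberg adjustment over 23225 genes. A 3-group model gave each line and the difference between lines. The SE was taken as the size of the log2 fold change over the root of the F statistic. DESeq2 1.42.0 was an alternative. Coordinates came from GENCODE M21 (GRCm38), to which 99.6% of genes matched, and near-identical copies were sought with blastn 2.17.0 (at least 90% identity over 300 bases). The labels do not say whether mice shared litters or batches. Library totals and the limit of 3 counts are given with the results. Alternatives were DESeq2, other size factors and filters, a replicate block, Xist and gland covariates, a stricter threshold and each mouse left out.

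Genes named were Ms4a6c and the tested Ms4a family, the genes called in both lines, filled up to 24 by the ranking given with the results, Necab1, Ptgds and Gm37206, and of each of 35 gene lists (2 of them added later) up to 4 members with the smallest p. Genes detected in 1 group only, and the neighbours of the Ms4a span, were described beside them. The members and lists were chosen with earlier results of these data known. On simulated counts for this comparison (23225 genes, changed genes with a mean of at least 50 counts), the test called 36 of 50 genes changed 1.5-fold, 43 of 50 changed 2-fold and 97 of 100 changed 4-fold, 8 genes without a change, and 0 in a run with no change. The many planted changes ease the Benjamini-Hochberg cut-off, whereas the real comparison called 1 gene. Necab1, with an unadjusted edgeR p of 1.8e-05, was not called there. These shares therefore do not give the power of the real comparison.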

Additional observations from a re-analysis of the deposited data

Results flagged for a closer look

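Among 34 genes looked at for outlying mice within the 6 knockout mice, 3 had one value far from the other 5, where chance gives such a value in about 5% of groups. Arvcf was at 54.5 CPM in Ms4a6c knockout mouse 1 against 46.9 to 49.7 CPM in the others. Efna5 was at 26.7 CPM in Ms4a cluster knockout mouse 2, one of the mice with much Bpifb9b, against 31.3 to 33.7 CPM. Ms4a1 was at 1.61 CPM in Ms4a6c knockout mouse 2, and the other knockout mice were at 0 to 0.533 CPM. The Ms4a cluster knockout mice were all at 0 for this gene, so the 6 mice are not alike and the 5% does not apply to it.

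For 4 Ms4a genes the lines differed from each other by the edgeR test of that difference, which the joint comparison averages over. The log2 fold change, Ms4a cluster knockout minus Ms4a6c knockout, was -8.78 for Ms4a7, -7.85 for Ms4a6b, -7.29 for Ms4a6d and -6.93 for Ms4a1. The cluster knockout has 0 counts of all 4, so these fitted values depend on the prior count. Ms4a1 is at the threshold, with an adjusted p of 0.05 after rounding.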

How the results depend on the processing

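Ms4a6c was called under all 19 alternatives run for it, with log2 fold changes of -7.55 to -6.31. Over 100 named genes and their alternatives, 1872 results in all, 1842 kept their direction and side of the threshold, 30 moved past the threshold, 0 fell back from it and 0 changed direction. Ms4a6c alone was called in the main test, so no other gene could fall back. Most of these genes were named for their values in the same mice, which favours a kept direction. The tally is therefore a description and not evidence that the differences are stable. The joint count of 1 gene became 23 with DESeq2 (21 in the same direction in both lines) and 36 with the 3-group model (29 in the same direction). Leaving out 1 mouse gave 1 to 3 genes, and as many in the same direction. The count called in each line alone, 1, was 2 without a filter on low counts (Gm37206 added), 6 with DESeq2, 0 with the Xist covariate, 0 at an adjusted p under 0.01, and 0 to 2 when 1 mouse was left out. It was 0 without wild-type mouse 2 or 3, Ms4a6c knockout mouse 3 or Ms4a cluster knockout mouse 1 or 3. Without Ms4a6c knockout mouse 2 it was 2. The causes were not tested. Among the ranked genes, the Ms4a family and Gm37206, 4 differed between the lines, and 3 to 6 did so under the alternatives.

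Under a replicate block the joint count was 1 and the count called in each line alone was 0. Deviations from the group means of same-numbered mice correlated at -0.13 on average (9 pairs, -0.54 to 0.11, 16537 genes). Those of different numbers correlated at 0.07 (18 pairs). Wild-type mouse 1 and Ms4a cluster knockout mouse 2, the mice with much Bpifb9b, correlated at 0.47. Differences in gland content can thus cover a shared litter or batch, and whether the numbers pair the mice stays unknown.

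With 2 alternatives chosen after seeing the data, a robust estimate of the spread and the 2 mice with much Bpifb9b left out, the joint count was 1. Without these mice 2657 genes against 1503 had an unadjusted p under 0.05. Of the 21 Ms4a genes, 11 had too few counts to be tested, and whether deeper sequencing would detect them was not tested.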
